A study of Rattus norvegicus with 14 samples.

Results

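The receptors through which cells recognise microbes were followed by 10 genes: the Toll-like receptors Tlr1, Tlr2, Tlr3, Tlr4, Tlr5 and Tlr9, the cytosolic receptors Nod1 and Nod2, the adaptor Myd88 and the lipopolysaccharide co-receptor Cd14. A gene counted as measured where the array design gave its symbol to a probe that was not a control. Tlr1 had no such probe, which left 9 of the 10 genes with 12 of the 30367 probes. Colonocytes, the epithelial cells lining the colon, came from male Wistar rats given for 15 days either a normal-protein diet (NPD, 14% of energy from protein) or an isocaloric high-protein diet (HPD, 55%). EDTA perfusion detached the cells from the colon without its last segment, so that each array holds the RNA of a bulk preparation of 1 rat, and 7 NPD and 7 HPD arrays were compared. In such a preparation fewer cells of a type and less RNA per cell cannot be told apart.

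Pattern recognition receptors bind molecules that microbes share and that animal cells lack. Toll-like receptors do so at the cell surface or in endosomes and most of them signal through the adaptor MyD88, while NOD1 and NOD2 sense fragments of bacterial peptidoglycan in the cytosol and signal through the kinase RIPK2. Both routes lead to NF-κB. In the colon these receptors face a dense microbiota, and epithelial cells as well as macrophages and lymphocytes of the mucosa carry them.

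Of the 9 genes, 6 had a single probe, and Tlr3, Nod1 and Nod2 had 2 each. All probes were 60 bases long, and the sequences of the 3 pairs are given from 5′ to 3′. The Nod1 probes gave unlike differences, and the dimmer Nod2 probe was not well above background on most arrays. The upper probe of each pair lies nearer to the 5′ end of the transcript, with rn4 positions from the scanner files. In the dimmer Nod1 and Nod2 probes, capitals mark the first stop codon of the reading frame that begins at the first base. It follows 18 codons in the Nod1 probe and 19 in the Nod2 probe. Of the other 4 probes the first 30 bases are given without marks, although the dimmer Tlr3 probe begins with the stop codon TAG.
Nod1, dimmer probe: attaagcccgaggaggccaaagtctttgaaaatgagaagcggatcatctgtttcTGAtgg
Nod1, brighter probe: tggggtgggacggttgggatgttgccagat
Nod2, dimmer probe: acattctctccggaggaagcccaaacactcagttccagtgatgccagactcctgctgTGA
Nod2, brighter probe: atcagttcctcccccaactgcagctcttta
Tlr3, dimmer probe: tagcacttgggtctcggaattcagcacatt
Tlr3, brighter probe: ccaaataaatacatgggattcctgaggtgt

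The dimmer Nod1 probe covers chr4:83399826-83399885 on the minus strand, and the brighter one chr4:83398827-83398886, 999 bases further along both the transcript and the genome. The dimmer Nod2 probe covers chr19:19663984-19664043 on the minus strand and the brighter one chr19:19662563-19662622. They lie 1421 bases apart in the genome but 260 by their start positions in the transcript, and the reason was not tested. Both Tlr3 probes are on the plus strand of chr16, at chr16:50126045-50126104 and 226 bases further on at chr16:50126271-50126330. The single probes lie at chr2:175608160-175608217 for Tlr2, chr5:83577410-83577469 for Tlr4, chr13:99028987-99029046 for Tlr5, chr8:124299763-124299822 for Myd88 and chr18:29374990-29375049 for Cd14. Whether each probe lies in coding sequence or in the untranslated end was not checked against a gene annotation.

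Values are log2 signals centred on the median probe of each array, so that 0 is the array's median probe. Signals of different probes also depend on how each probe hybridises, and no gene's level was ranked against another's. Between 18835 and 20967 probes per array were well above background, no probe was saturated, and arrays correlated at 0.970 to 0.992. Before centring, the median signal over all non-control spots was 149 ± 22.3 on the NPD arrays (SD, n = 7) and 112 ± 13.0 on the HPD arrays (SD, n = 7). That median over spots is not the median over probes on which the arrays were centred. By the barcodes in the scanner files, arrays lay on 2 slides. NPD replicates 1 to 4 and HPD replicates 1 to 3 were on slide 1 and the others on slide 2. The diets were compared with limma, and p-values were adjusted (Benjamini-Hochberg) over all probes, with a call at an adjusted p below 0.1.

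Of the 9 receptor genes, 8 gave a signal above background in the bulk colonocyte preparation of every rat, and none was called between the diets. These 8 genes had 10 probes well above background on all 14 arrays. The exceptions were the only Tlr9 probe, well above background on 0 arrays, and the dimmer Nod2 probe, well above it on 1 NPD and 1 HPD array. limma called 0 of the 12 probes, against 0.0560% of all probes, with adjusted p between 0.417 and 0.990. At an unadjusted p below 0.05 it found 1 of the 12, the dimmer Nod1 probe, which was lower, against 11.4% of all probes (5.86% higher and 5.55% lower). In none of the 12 did the diets fail to overlap, which they did in 0.273% of all probes. In the HPD group 8 of the 12 probes were higher and 4 lower, while 64.2% of all probes were higher. Under other signal columns, normalizations or left-out arrays the sign turned for the brighter probes of Tlr3 and Nod1 and for Tlr4, Tlr5 and Myd88, and never for Tlr2, Cd14 or the brighter Nod2 probe, nor for the dimmer Nod1 probe in the fits of single probes. The median log2 difference of the 12 was 0.11, the same as over all probes, and 0.04 over the 10 probes above background.

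**Figure D1:**
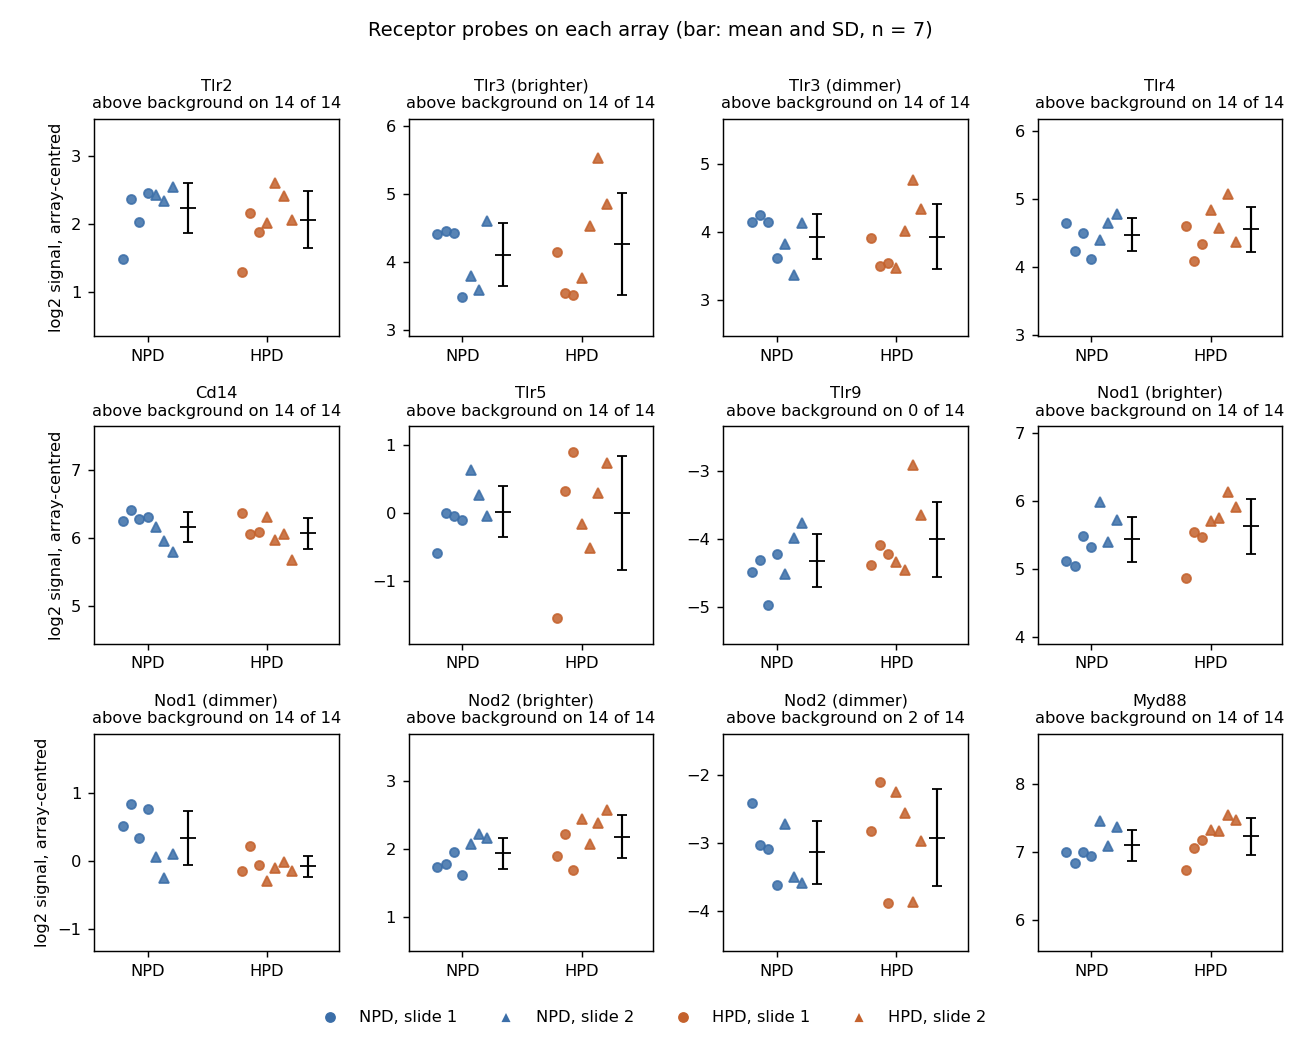
Each panel plots the array-centred log2 signal of 1 probe in the 7 NPD and 7 HPD arrays, in replicate order, with circles for slide 1 and triangles for slide 2; the bar gives mean and SD, and all panels span the same range. The diets overlap in every panel, and the dimmer Nod1 probe is the one in which all 7 HPD values lie below the NPD mean of 0.34.

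**Figure D2:**
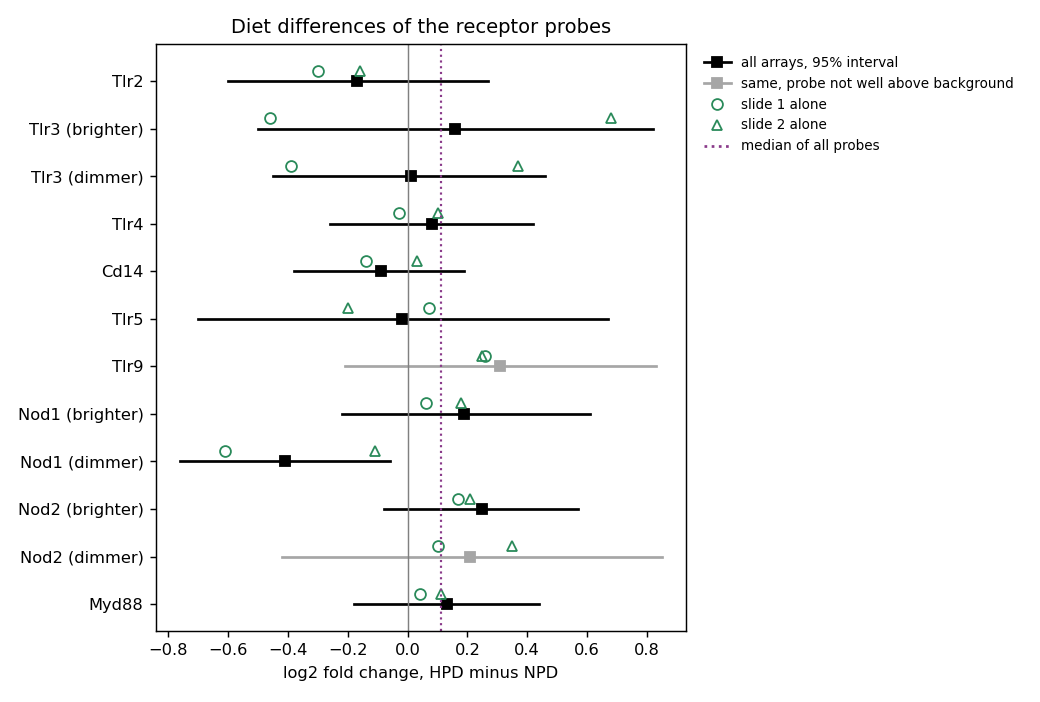
The log2 fold change of HPD over NPD is plotted for each of the 12 probes with its 95% interval (squares and lines), and for each slide alone (open symbols); grey probes were not well above background, and the dotted line is the median of all probes. Every interval crosses 0 except that of the dimmer Nod1 probe, and the slides lie farthest apart for Tlr3.

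The receptors of the cell surface showed small differences with wide intervals. Tlr2, a sensor of bacterial lipoproteins, had log2 signals from 1.49 to 2.55 in the NPD group (median 2.37) and from 1.30 to 2.61 in the HPD group (median 2.07). The lowest rat of each diet was replicate 1, and 5 of the 7 HPD rats lay below the NPD mean. The difference was -0.17 (SE 0.20, 95% interval -0.60 to 0.27, adjusted p = 0.682). Without HPD replicate 1 it shrank to -0.04, and without NPD replicate 1 it was -0.29.

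Tlr4 binds lipopolysaccharide, the outer membrane component of Gram-negative bacteria, and CD14 hands it over. Tlr4 ranged from 4.11 to 4.78 in the NPD group (median 4.50) and from 4.09 to 5.07 in the HPD group (median 4.57). The difference of 0.08 (SE 0.16, 95% interval -0.26 to 0.42, adjusted p = 0.806) was within the spread between rats, and HPD replicate 6 was the highest. Cd14 ranged from 5.79 to 6.41 in the NPD group (median 6.24) and from 5.67 to 6.36 in the HPD group (median 6.05). Replicate 7 was the lowest rat of each diet. Its difference was -0.09 (SE 0.13, 95% interval -0.38 to 0.19, adjusted p = 0.728).

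Tlr5, the receptor of bacterial flagellin, varied more between arrays than nearly all other probes above background on every array. Its signals ran from -0.59 to 0.64 in the NPD group (median -0.04) and from -1.55 to 0.90 in the HPD group (median 0.29). HPD replicate 1 was the lowest and HPD replicate 3 the highest of all 14 rats. The mean difference was -0.02 (SE 0.32, 95% interval -0.70 to 0.67, adjusted p = 0.980), and 0.24 (adjusted p = 0.521) without HPD replicate 1. After removing diet and slide, its SD was 0.653, larger than in 97.4% of the 17432 probes above background on all arrays. With 1 array per rat, the spread between rats and that of the measurement cannot be told apart.

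Tlr3 and Tlr9 recognise nucleic acids in endosomes, double-stranded RNA and unmethylated CpG DNA respectively, and Tlr3 signals through the adaptor TRIF in place of MyD88. The brighter Tlr3 probe ranged from 3.49 to 4.60 in the NPD group (median 4.41) and from 3.51 to 5.53 in the HPD group (median 4.15). HPD replicate 6 was the highest rat on both Tlr3 probes. The difference was 0.16 on the brighter probe (SE 0.31, 95% interval -0.50 to 0.82, adjusted p = 0.802) and 0.01 on the dimmer one (SE 0.21, 95% interval -0.45 to 0.46, adjusted p = 0.990). Without HPD replicate 6 the brighter probe gave -0.05.

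The pair of Tlr3 probes followed each other over the rats (Pearson's r = 0.958 over 14 arrays, as a description, since both read 1 gene on the same arrays). On both probes the slides went opposite ways. The brighter one gave -0.46 on slide 1 and 0.68 on slide 2, and the dimmer one -0.39 and 0.37. The difference between slides on the brighter probe was 1.14 (SE 0.55), with a limma p of 0.0598 and an adjusted p of 1 over all probes, where the same test found 423 probes below 0.05. With a residual SD of 0.620 the brighter probe varied more than 97.0% of the probes above background, and the dimmer one, with 0.428, more than 90.7%. The Tlr9 probe, of which the design gives no genome position, stayed at -4.97 to -3.76 in the NPD group and -4.46 to -2.91 in the HPD group, below background throughout, and no fold is given.

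The cytosolic receptor Nod1 gave unlike differences on its 2 probes. Over the 14 arrays these probes did not follow each other (Pearson's r = -0.436, and 0.098 after subtracting each slide's mean). The brighter one, printed as 10 spots on each array, ranged from 5.05 to 5.98 in the NPD group (median 5.39) and from 4.86 to 6.14 in the HPD group (median 5.70). In the HPD group 6 of the 7 rats lay above the NPD mean, and HPD replicate 1 was the lowest of all. Its difference was 0.19 (SE 0.19, 95% interval -0.22 to 0.61, adjusted p = 0.625), 0.06 on slide 1 and 0.18 on slide 2. The dimmer probe, which holds the stop codon shown above, ranged from -0.25 to 0.84 in the NPD group (median 0.34) and from -0.29 to 0.22 in the HPD group (median -0.10).

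All 7 HPD values of the dimmer probe lay below the NPD mean, and the 4 NPD rats of slide 1 were the highest of the 14. The NPD mean was 0.34 ± 0.40 (SD, n = 7) and the HPD mean -0.07 ± 0.16 (SD, n = 7). The difference was -0.41 (SE 0.16, 95% interval -0.76 to -0.06), with an unadjusted limma p of 0.0236 and an adjusted p of 0.417. An exact two-sided permutation test gave p = 0.0274 over all 3432 splits and p = 0.0147 over the 1225 regroupings within slides. It was -0.61 on slide 1 and -0.11 on slide 2, and limma's test of that difference between slides gave an unadjusted p of 0.0434 and an adjusted p of 1. The median signal over non-control spots before centring was also higher in the NPD group on slide 1. Its means were 164 for NPD and 114 for HPD there, and 130 and 110 on slide 2. The part of this signal in the difference was not tested.

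Taken within each array, the brighter minus the dimmer Nod1 signal does not depend on the centring. It ran from 4.21 to 5.92 in the NPD group (median 5.14) and from 5.00 to 6.15 in the HPD group (median 5.85). On each slide the HPD mean was above the NPD mean, by 0.66 on slide 1 and 0.29 on slide 2, while the slides themselves stood apart. The change was 0.61 over all arrays, with an exact two-sided permutation p of 0.0641. As the mean of the changes on the 2 slides it was 0.48, with an exact permutation p within slides of 0.0106. Adjusted over the 3 probe pairs, a comparison chosen after seeing the data, these p-values were 0.192 and 0.0318. After normexp background correction, which called 1 of the 12 receptor probes (the dimmer Nod2 probe, not well above background) against 16.9% of all probes, the change was 0.31 (exact permutation p = 0.207) and with slide as a block 0.21 (exact permutation p = 0.153). With the mean pixel signal it was 0.39 (exact permutation p = 0.122) and with the median pixel signal 0.37 (exact permutation p = 0.142).

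**Figure D3:**
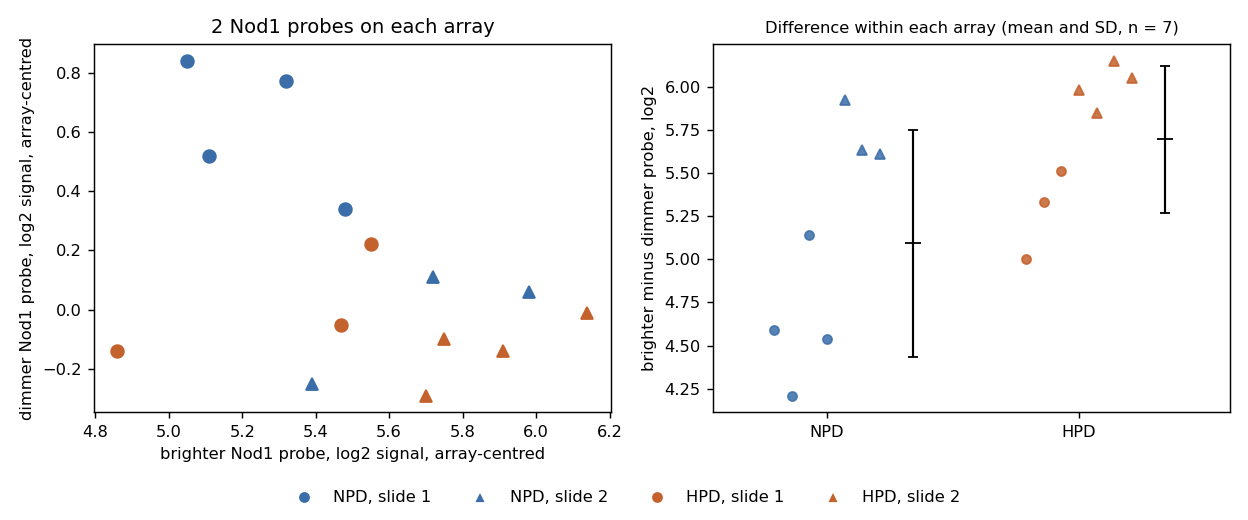
Left, the array-centred log2 signal of the dimmer Nod1 probe against the brighter one on the 14 arrays; right, their log2 difference within each array by diet, with mean and SD. The brighter probe and the difference are higher on slide 2 (triangles) in both diets, and on each slide the HPD mean of the difference lies above the NPD mean.

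Nod2, the receptor of muramyl dipeptide, ranged on its brighter probe from 1.61 to 2.22 in the NPD group (median 1.95) and from 1.69 to 2.57 in the HPD group (median 2.22). In the HPD group 5 of the 7 rats lay above the NPD mean. The difference of 0.25 (SE 0.15, 95% interval -0.08 to 0.57, adjusted p = 0.504) was 0.17 on slide 1 and 0.21 on slide 2. An exact two-sided permutation test gave p = 0.122, and p = 0.0784 within slides. The dimmer Nod2 probe, which ends at the stop codon shown above, was not well above background on 12 of the arrays and adds no measure of Nod2.

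Myd88 ranged from 6.84 to 7.46 in the NPD group (median 7.00) and from 6.73 to 7.54 in the HPD group (median 7.31). HPD replicate 1 was the lowest rat and HPD replicate 6 the highest. Its difference was 0.13 (SE 0.14, 95% interval -0.18 to 0.44, adjusted p = 0.655), 0.04 on slide 1 and 0.11 on slide 2. Among the receptor probes it varied least between arrays after diet and slide were removed (SD 0.149, above 15.2% of probes), followed by the brighter Nod2 probe (0.179) and Cd14 (0.186).

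Slide was called on more of these probes than diet was, as it was over all probes. In a limma fit of diet and slide, slide was called on 6 of the 12 probes, against 40.1% of all probes (27.9% higher and 12.1% lower on slide 2). The brighter Nod1 probe was higher on slide 2 by 0.52, Tlr2 by 0.42, the brighter Nod2 probe by 0.40 and Myd88 by 0.39. The dimmer Nod1 probe was lower there (-0.40), as was Cd14 (-0.25). With slide as a block, limma again called 0 of the 12 receptor probes for diet, against 0.0889% of all probes. The diet difference was then 0.12 for the brighter Nod1 probe, -0.23 for Tlr2, 0.19 for the brighter Nod2 probe and 0.07 for Myd88. It was -0.36 for the dimmer Nod1 probe and -0.06 for Cd14.

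Over the 28 pairs of receptor genes, taken on their brightest probes above background after subtracting each slide's mean, 1 pair had an adjusted p below 0.05, and the lowest of the other 27 was 0.145 by either measure of correlation. Nod1 and Myd88 had a Pearson's r of 0.904 over the 14 rats (p = 7e-05 by permutation within slides, adjusted p = 0.00196) and a Spearman's rho of 0.851 (permutation p = 0.00028, adjusted p = 0.00784). It was 0.837 on slide 1 and 0.977 on slide 2, and 0.798 without the 2 rats farthest from the median of Nod1. After cyclic loess, which evens out trends with signal between arrays, r was 0.635. Of 15288 other genes above background, 55 (0.360%) were at least as close to Nod1 as Myd88 was, so that the pair is high but not alone. Nod1 stands here for its brighter probe, which the dimmer one did not follow, and the dimmer one was not set against Myd88. These pairs were computed after seeing the data.

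**Figure D4:**
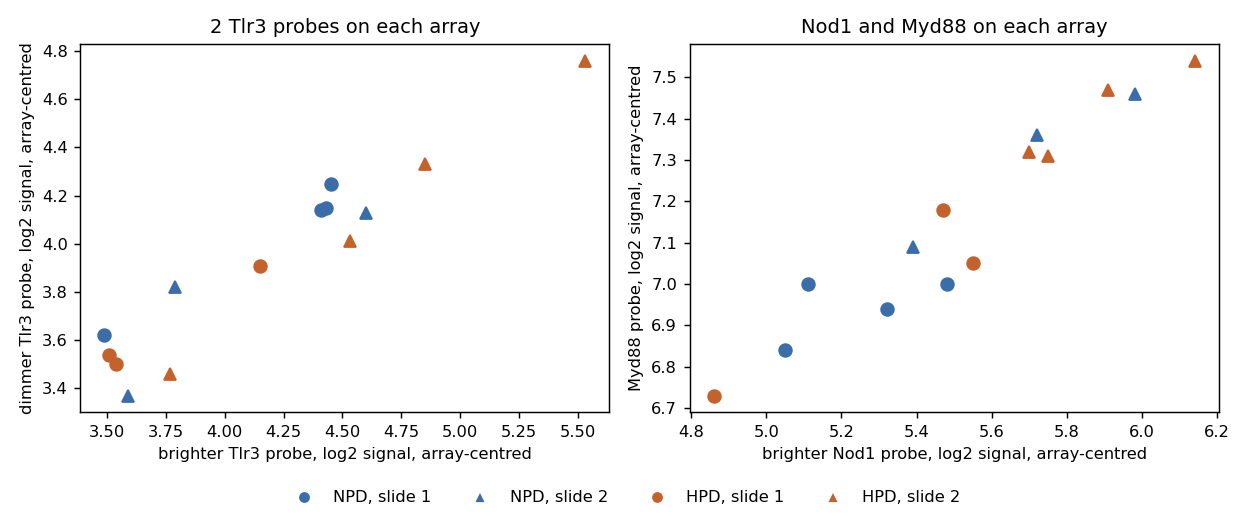
Left, the dimmer against the brighter Tlr3 probe, and right, Myd88 against the brighter Nod1 probe, as array-centred log2 signals of the 14 arrays by diet (colour) and slide (shape). The Tlr3 probes follow each other across both diets with HPD replicate 6 at the top, and Nod1 and Myd88 rise together with HPD replicate 1 lowest and HPD replicate 6 highest.

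Among all genes above background, those closest to a receptor by slide-centred Pearson's r over the 14 arrays are given as a description. The closest to Tlr2 were Fads2, a fatty acid desaturase (0.917), Mcat (0.912) and a probe without a gene name (0.906). Hoxb6 and S100a4, at 0.934 each, stood beside Tlr5 with a probe that carries only a sequence identifier (0.934), and the immediate early gene Btg2 (0.857), Mitd1 (0.847) and the peptide hormone gene Adm (0.844) were those of Tlr4. Zer1 (0.968), RGD1311847 (0.957) and a probe with a transcript identifier (0.977) were those of Nod1, and Cnot4 (0.937), Ccdc28a (0.936) and RGD1311595 (0.935) those of Myd88. Nudt7 (0.822), RGD1308127 (0.822) and Tmco4 (0.803) were closest to Tlr3, and Padi1 (0.872), Rfwd3 (0.807) and Abcg3l3 (0.802) to Cd14. The 3 closest to Nod2 (0.881 to 0.906) carry only transcript or probe identifiers. Adjusted p for diet was between 0.455 and 0.989 for all of the 24 closest genes.

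The partners of these receptors were followed in 5 lists, with the brightest probe of each gene. Of 82 genes, 70 were on the array, and limma called 0 of them, against 0.0533% of all genes. At an unadjusted p below 0.05 there were 6 genes, 1 higher and 5 lower, against 11.5% of all genes (6.05% higher and 5.48% lower). The median difference over the 70 genes was -0.02, with 35 higher and 35 lower, beside a median of 0.11 over all probes.

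In the list of adaptors and receptor-proximal kinases (16 genes on the array, median 0.12), Traf6, the ubiquitin ligase on which MyD88 signals converge, was 2.56 ± 0.24 in the NPD and 1.93 ± 0.31 in the HPD group (SD, n = 7). Its difference of -0.64 (SE 0.15) had an adjusted p of 0.417 in limma, 6 of the 7 HPD values lay under the NPD mean, and it was called without HPD replicate 1 (-0.74, adjusted p = 0.0519), a fit in which calls over all 30367 probes went from 17 to 151. Among the other pattern recognition receptors (21 genes, median 0.10), Nlrp6, an epithelial inflammasome receptor, was 4.57 ± 0.30 in the NPD and 3.84 ± 0.46 in the HPD group. Its difference of -0.73 (SE 0.20, adjusted p = 0.417) was called in that fit too (-0.86, adjusted p = 0.0976). Clec7a of the same list, the β-glucan receptor, was above background on 0 NPD arrays and 1 HPD array, and no fold is given.

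Among the inhibitors of receptor signalling (12 genes, median -0.12), Inpp5d, a lipid phosphatase of blood cells, differed by -0.64 (SE 0.27, adjusted p = 0.418). Of the 12 effectors of the interferon and NF-κB arms (median -0.17), Nfkb1, a subunit of NF-κB, differed by -0.43 (SE 0.15, adjusted p = 0.417) and the kinase gene Tbk1 by -0.63 (SE 0.25, adjusted p = 0.417). Irf7 of that list, an interferon regulatory factor named after its values were seen, differed by -1.02 (SE 0.64, adjusted p = 0.508) and by -1.69 (adjusted p = 0.0153) without HPD replicate 6, a fit with 28 calls over all probes. The 9 co-receptors and ligand handling genes had a median of -0.10 and none with an unadjusted p below 0.05.

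The authors' deposited table gave no receptor call, against 0.0681% of its genes, and none with slide as a block either, against 10.5% of its genes. With that block 6 of the 70 partner genes (8.57%) were called, a share below that of all genes. All 6 were lower in the HPD group, but the direction of the calls over all genes was not counted. Nlrp6 (-0.73, adjusted p = 0.038), Traf6 (-0.61, adjusted p = 0.0382) and Nfkb1 (-0.44, adjusted p = 0.0518) were among them, with Rela, the other chief subunit of NF-κB (-0.25, adjusted p = 0.0694), Sigirr, an inhibitor of Toll-like receptors (-0.24, adjusted p = 0.0702), and Ly96, the lipopolysaccharide-binding partner of Tlr4 (-0.47, adjusted p = 0.0974). Markers were called in that fit in a like share, 5 of 62 (8.06%). The epithelial and goblet markers Agr2 (-0.66), Krt19 (-0.47) and Epcam (-0.27) and the myeloid marker Lyz2 (-0.70) were lower in the HPD group. The stromal marker Pdgfra was called higher, but its brightest probe was above background on 0 NPD and 0 HPD arrays in the scanner values. No fold is given for it. The part of these markers in the partner genes' calls was not tested. Sigirr differed by -0.10, Rela by -0.35 and Ly96 by -0.43 in the scanner values, none of them called. Of the receptors above background in the scanner values, Nod2 (0.14, adjusted p = 0.222) and Tlr2 (-0.28, adjusted p = 0.240) had the lowest adjusted p in that fit.

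The labelled cell type was checked by markers, since myeloid and lymphoid cells carry many of these receptors. All 13 epithelial and all 7 goblet markers were well above background on all 14 arrays, the epithelial adhesion gene Epcam at 9.21 ± 0.12 in the NPD and 9.07 ± 0.20 in the HPD group and the mucin gene Muc2 at 10.59 ± 0.38 and 10.60 ± 0.49 (SD, n = 7). Of the other lists, 11 of 16 myeloid, 5 of 13 lymphocyte and 9 of 13 stromal, muscle and endothelial markers were above background on all arrays as well, among them the leukocyte gene Ptprc (0.55 ± 0.93 and 0.37 ± 0.47) and the macrophage gene Cd68 (1.26 ± 0.19 and 1.26 ± 0.41). Of the T cell receptor complex, Cd3d (3.12 ± 0.34 and 3.13 ± 0.21) and Cd3g (1.67 ± 0.64 and 1.47 ± 0.27) were above background on all 14 arrays, and Cd3e, named after its values were seen, on 3 NPD and 0 HPD arrays. In addition, 3 myeloid and 3 stromal markers were so on no array. limma called 0 markers of any list. The mean level of the 11 myeloid markers ran from 1.76 to 2.53 in the NPD and from 1.64 to 2.51 in the HPD group, a difference of -0.04 (exact permutation p = 0.784), and that of the 5 lymphocyte markers from 2.13 to 3.44 and from 1.98 to 2.55, a difference of -0.23 (exact permutation p = 0.248). The epithelial mean differed by 0.06, the goblet mean by -0.25 and the stromal mean by -0.08.

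Markers with an unadjusted p below 0.05 were Krt19 (-0.36), Agr2 (-0.63) and Clca1 (-0.56) of the epithelial and goblet lists, Lyz2 (-0.56) and Itgam (0.34) of the myeloid list, and Col1a1 (0.35) and Myh11 (-0.48) of the stromal list, with limma adjusted p between 0.417 and 0.432. Col3a1 had an unadjusted p of 0.00425 but was above background on only 1 array. Clca1 was called without HPD replicate 1 (-0.79, adjusted p = 0.0801), among the 151 calls of that fit.

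The receptor levels, each on the brightest probe only, were set against the myeloid and the lymphocyte marker means over the 14 rats, 16 relations in all. Unlike for the receptor pairs, slide means were not subtracted and arrays were permuted across both slides. By Pearson's r the closest was Nod1 with the myeloid markers, with 0.607 (permutation p = 0.0225, adjusted p = 0.131) and a Spearman's rho of 0.530 (permutation p = 0.0533, adjusted p = 0.251). By Spearman's rho it was Myd88 with the same markers, with 0.635 (permutation p = 0.0174, adjusted p = 0.251). Without the 2 rats farthest from the median of the marker mean, r for Nod1 was 0.651. It was 0.652 on slide 1 and -0.175 on slide 2, so that the relation did not hold within both slides. Myd88 (r = 0.603, 0.510 on slide 1 and -0.201 on slide 2) and Tlr2 (r = 0.593, 0.701 on slide 1 and 0.00951 on slide 2) did the same, and no relation had an adjusted p below 0.131. After subtracting each slide's mean, r with the myeloid markers was 0.2 for Nod1, 0.107 for Myd88 and 0.386 for Tlr2.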

How the data were processed

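Colonocyte RNA of 7 NPD and 7 HPD rats was hybridised to 1-colour Agilent arrays, 1 array per rat, and samples were grouped by their labels. The authors deposited the output of the scanner software (Feature Extraction 10.7.3.1), with a linear intensity for every spot as read and with its background subtracted. A second deposited file holds the authors' normalized log2 value of each gene name on each array. How it was centred was not given in the sources used here. The outlier samples removed by the authors were not analysed here, and 0 columns belonged to other samples.

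Controls and spots the software marked as outliers were dropped, the background-subtracted intensity was log2-transformed, spots were averaged per probe, and each array was centred on its median over 30367 probes. A probe was well above background on an array where at least 0.5 of its spots were so marked. Diet was the single term of a fit with lmFit and eBayes (limma 3.58.1 in R 4.3.3), with Benjamini-Hochberg adjustment over all probes, no filter on signal and a call below 0.1. Exact two-sided permutation tests took all 3432 splits into 7 and 7 arrays, with a smallest possible p of 0.00058, or the 1225 that leave the diets of each slide in number. Those within slides tested the mean of the 2 slides' diet differences. Correlations over rats had 100000 permutations (Python 3.11.15, numpy 2.4.6). The fit was tested on simulated data. The number of arrays limits the precision.

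The members and the gene lists were chosen with earlier results of these data known. The text names every receptor probe, from each other list up to 6 genes with an unadjusted p below 0.05 by the brightest probe (highest mean over the 14 arrays) and up to 3 defining markers, and, of the 3 genes closest to each receptor, those with a gene symbol. The alternatives were another signal, centring, normalization, background correction, filter or threshold, a block for slide or replicate number, a trend in eBayes, the deposited values, the mean of a gene's probes and leaving out each array. Symbols and positions are those of the array design (rn4).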

Additional observations from a re-analysis of the deposited data

How the results depend on the processing

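No receptor probe was called under any alternative except normexp background correction, under which limma called 16.9% of all probes. Normexp called 1 receptor probe, 8 partner genes and 11 markers, and with slide as a block, chosen after seeing the data, 2, 16 and 13, beside 27.9% of all probes. The receptor probes were the dimmer Nod2 probe (0.18 and 0.17), not well above background on most arrays, and with slide as a block the dimmer Nod1 probe (-0.22, adjusted p = 0.0727). A slide block on the deposited table called 6 partner genes and 5 markers. Leaving out single arrays gave 0 to 2 partner genes and 0 to 1 marker, with 9 to 151 calls over all probes in place of 17, and the highest of each came without HPD replicate 1. Tlr2, Cd14 and the brighter Nod2 probe kept their direction under all 31 alternatives, and the dimmer Nod1 probe under the 28 that give a value for a single probe. None of the sign changes that follow was called, and their cause was not tested. Tlr4 turned to -0.02 with the mean and with the median pixel signal, -0.06 with normexp and with the deposited table, -0.09 with normexp and slide as a block, and -0.07 with that table and slide as a block. Tlr5 turned to 0.03 and 0.06 with the mean and the median pixel signal, 0.02 with normexp, 0.01 with the deposited table and 0.05 with centring over spots. Nod1 turned to -0.02 with the deposited table, -0.05 with that table and slide as a block, -0.01 with normexp and slide as a block, and -0.11 with the mean of its probes. Tlr3 turned to -0.06 with the deposited table, with or without slide as a block, and -0.02 with normexp and slide as a block. Myd88 turned to -0.01 with normexp, -0.02 with the deposited table, -0.05 with that table and slide as a block, and -0.06 with normexp and slide as a block. Leaving out single arrays gave -0.17 to 0.24 for Tlr5, -0.05 to 0.29 for Tlr3 and -0.01 to 0.16 for Tlr4. The change between the Nod1 probes was 0.46 to 0.74 without single arrays (exact permutation p = 0.028 to 0.128), 0.51 after quantile normalization (exact permutation p = 0.0408), 0.54 after cyclic loess (exact permutation p = 0.042) and 0.48 within slides, but 0.39 with the mean pixel signal (exact permutation p = 0.122), 0.37 with the median pixel signal (exact permutation p = 0.142) and 0.31 after normexp (exact permutation p = 0.207). It passed an unadjusted p below 0.05 without HPD replicate 1 (0.72) and without NPD replicate 5 (0.74), 6 (0.70) or 7 (0.69).

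Same-numbered NPD and HPD arrays deviated together with correlations from -0.163 to 0.670, and only replicate 1 matched its own number best, so the numbers were not taken as pairs. With the replicate block limma called 0 receptor probes, 0 partner genes and 0 markers, and 8 of all probes in place of 17. Signal limits Tlr9 and the dimmer Nod2 probe, which were not well above background on most arrays.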
